A study of Mus musculus with 16 samples.

Results

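The 4 genes of the auxiliary beta subunit of voltage-gated calcium channels, Cacnb1, Cacnb2, Cacnb3 and Cacnb4, were measured in the hippocampus of mice after a learned helplessness protocol. Every assembled transcript that carries one of these 4 gene names was taken, which gave 26 transcripts of 80137 in the table and 4 gene names of 18287. By gene these were 6 transcripts for Cacnb1, 13 for Cacnb2, 2 for Cacnb3 and 5 for Cacnb4, and GENCODE annotates 14 of the 26 as protein coding.

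RNA was sequenced from 16 wild-type male C57BL/6 mice aged 3 months. Each of the 4 groups held 4 mice, and the left and right hippocampus of a mouse went into 1 library. Home cage mice (HC) received no shocks and no trials. Control mice (Ctrl) went through 30 escape trials with 0.4 mA foot shocks in a shuttle box, without earlier inescapable shocks. All other mice first received 180 inescapable shocks of 0.4 mA and 24 h later the same 30 trials, and were then divided by their escape behaviour into helpless mice (LH) and resilient, non-helpless mice (NLH). LH and NLH therefore had the same inescapable shocks and are not groups assigned at random. A shock in the trials stopped once the mouse crossed over, so the amount of shock received in the test differs with the behaviour that defines the groups. In tissue of mixed cells, fewer cells of a type and less RNA per cell cannot be told apart.

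High voltage-activated calcium channels consist of a pore-forming alpha1 subunit together with an intracellular beta subunit and an extracellular alpha2delta subunit. The beta subunit binds the linker between the first and second repeats of alpha1, helps to bring the channel to the membrane, and sets how the channel opens and inactivates, so its isoforms tune calcium entry at synapses. Cacnb4 is the gene mutated in the lethargic mouse, which has ataxia and absence-like seizures. Cacnb3 and Cacnb4 are prominent in forebrain neurons, Cacnb1 is also the beta subunit of skeletal muscle, and Cacnb2 is also that of heart.

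The groups are compared below by transcript as well as by gene, because the Cacnb4 signal was divided among transcripts that begin at different exons. Cacnb4 lies on the minus strand of chromosome 2 from 52428320 to 52676831 (mm10). Its longest coding transcript, Cacnb4-201 (ENSMUST00000078324.6, 8225 bases), starts at the far upstream end. Cacnb4-202 (ENSMUST00000102760.9, 7872 bases) and Cacnb4-203 (ENSMUST00000102761.8, 8039 bases) start 118271 bases further downstream, within 7 bases of each other. These 3 transcripts have 12 exons in common, among them a last exon of 6425 bases, and encode 519, 486 and 473 codons. The whole of Cacnb4-202 is contained in Cacnb4-203, which adds an exon of 160 bases, 1.99% of its length, ahead of the shared coding exons. A further transcript, Cacnb4-205 (ENSMUST00000148837.1), is annotated as noncoding and is only 208 bases long. It has an exon of 123 bases and an exon of 85 bases, and 84 bases of the latter are also a coding exon of Cacnb4-201.

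The sequences below show how the coding starts of these transcripts differ and how little of Cacnb4-205 there is to be sequenced. In the coding starts, taken from the GENCODE vM21 transcripts, capitals mark the coding bases ahead of the 12 shared exons, and lower case marks the first 15 bases of the exon that the 3 coding transcripts share (chr2:52477797-52477811, minus strand). In Cacnb4-205, capitals mark its exon of 85 bases and lower case the last 30 bases of the exon before it.
Cacnb4-201 coding start: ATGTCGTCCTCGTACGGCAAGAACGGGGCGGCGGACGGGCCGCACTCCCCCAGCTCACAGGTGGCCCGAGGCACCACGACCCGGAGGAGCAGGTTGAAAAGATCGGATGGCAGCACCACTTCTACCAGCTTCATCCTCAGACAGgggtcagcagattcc
Cacnb4-202 coding start: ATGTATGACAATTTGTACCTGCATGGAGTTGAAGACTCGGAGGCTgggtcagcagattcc
Cacnb4-203 coding start: ATGGCTgggtcagcagattcc
Cacnb4-205 exon junction: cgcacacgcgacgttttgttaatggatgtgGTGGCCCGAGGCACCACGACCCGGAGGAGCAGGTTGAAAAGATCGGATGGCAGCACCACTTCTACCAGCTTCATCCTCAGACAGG
The coding bases ahead of the shared exons number 144 in Cacnb4-201, 45 in Cacnb4-202 and 6 in Cacnb4-203. They are not unique to one transcript, since 84 of the 144 are also in Cacnb4-205 and the 45 of Cacnb4-202 also lie in the first exon of Cacnb4-203, ahead of its coding start. Reads separate Cacnb4-203 from Cacnb4-202 only through the exon of 160 bases, its junctions, the junction of Cacnb4-202 that skips it and the 7 bases at the start. Cacnb4-201 has 645 bases that are not in Cacnb4-202.

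**Figure D1:**
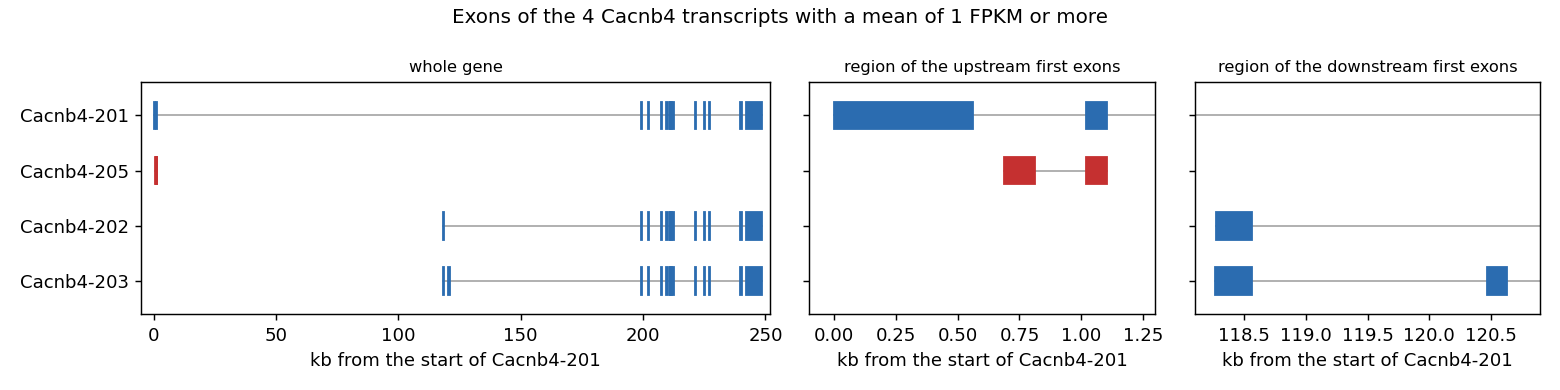
Exons (boxes) of the 4 Cacnb4 transcripts with a mean of 1 FPKM or more, drawn by distance in kb from the start of Cacnb4-201, for the whole gene and for the 2 regions that hold first exons. The 208-base Cacnb4-205 (red) lies wholly upstream and shares no exon with Cacnb4-202 or Cacnb4-203.

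Levels are given as FPKM, a count of fragments scaled to the length of the transcript and to the depth of the library, which is corrected for length and can be set side by side between genes. Library depth was estimated from the steps between low FPKM values at between 20200000 and 38000000 fragments, and was 20200000 to 28150000 in LH against 28650000 to 38000000 in Ctrl. LH replicates 3 and 4 stand apart, with 10846 and 15504 transcripts listed at 0 against 4872 to 7352 in the other 14 mice. All 8 markers of a list for hippocampal neurons were in the table and summed to 661 to 902 FPKM per mouse, though Wfs1, a marker of CA1 neurons, was under 0.1 in LH replicate 4. The SD of log2 FPKM within a group, as a median over transcripts, was 0.43 in LH against 0.18 to 0.25 in the other groups. Differences are on the scale of log2(FPKM + 0.1), were fitted with limma on the whole table, and carry Benjamini-Hochberg adjusted p-values over all genes or all transcripts.

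Over all named transcripts, Cacnb4 had the highest level of the 4 genes, with a mean of 29.8 FPKM over the 16 mice. Cacnb2 followed at 10.8, Cacnb1 at 10.4 and Cacnb3 at 7.67. Cacnb4 was above Cacnb1 and above Cacnb3 in 16 of 16 mice and above Cacnb2 in 14, while Cacnb2 exceeded Cacnb1 in only 9 of 16, so these last neighbours in the order did not separate. When only the coding transcripts were summed, the order changed to Cacnb4 at 12.8, Cacnb1 at 9.98, Cacnb3 at 7.67 and Cacnb2 at 4.72. Cacnb2 was then below Cacnb1 in all 16 mice and below Cacnb3 in 15. The transcripts annotated as noncoding made up 34.8 to 72.5% of the Cacnb2 FPKM and between 0 and 86.0% of that of Cacnb4, but at most 8.17% of that of Cacnb1, and Cacnb3 had none. The loci also hold assembled transcripts without a gene name. With these added, the means over the 16 mice were 21.0 FPKM for Cacnb2, 15.2 for Cacnb3 and 11.9 for Cacnb1, so the order of these 3 genes depends on which transcripts are counted. They were not added for Cacnb4, whose locus carries more than 1 gene name.

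**Figure D2:**
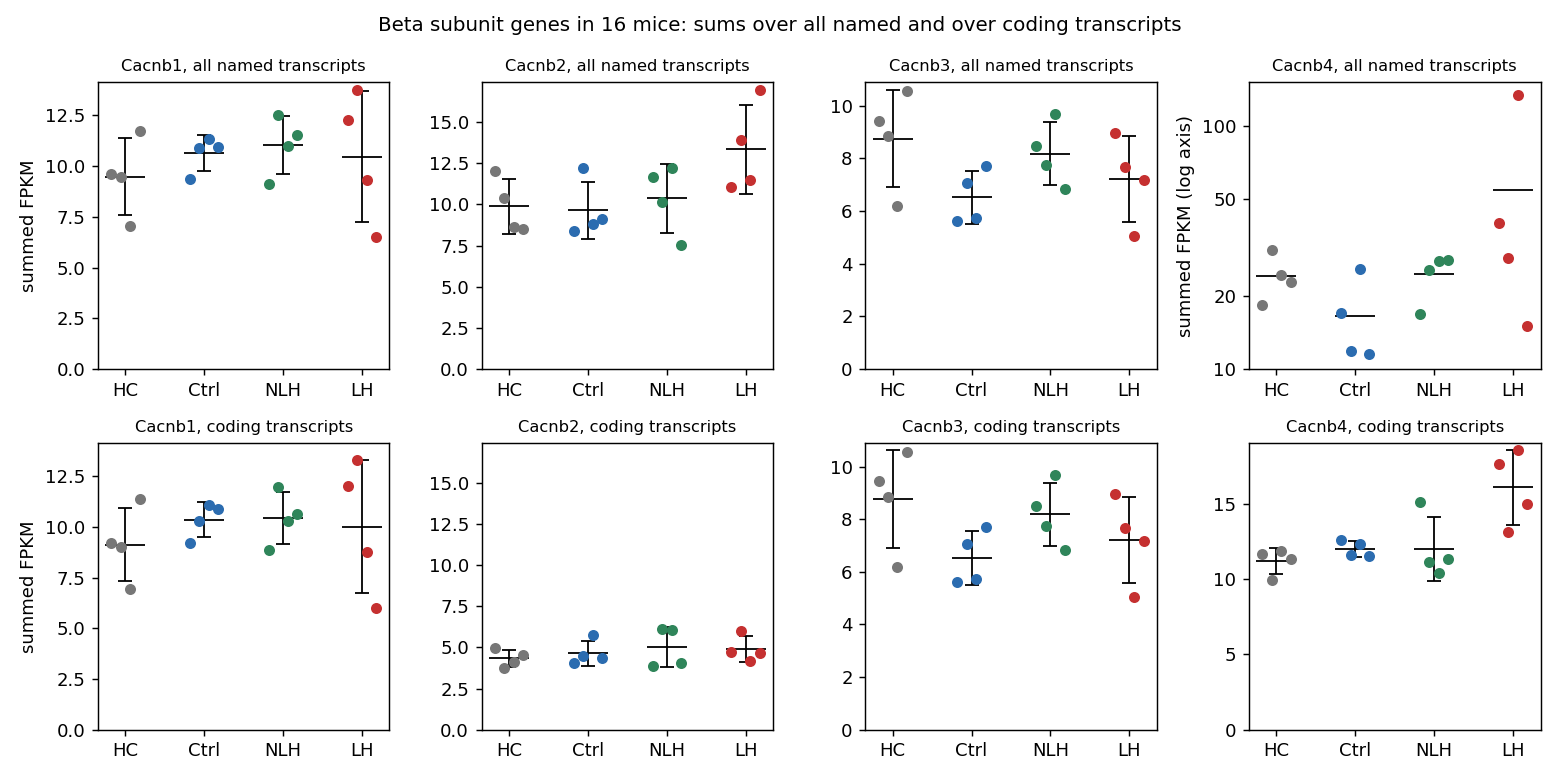
Summed FPKM of each beta subunit gene in each of 16 mice (points), over all named transcripts (upper panels) and over coding transcripts (lower panels), with the group mean (line) and SD (bars, omitted in the panel with a log axis), n = 4 mice per group. The Cacnb4 sum of 1 LH mouse stands at 133 over all transcripts, whereas the coding sums of the 4 LH mice lie between 13.1 and 18.6.

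For Cacnb4, LH mice had higher coding expression than Ctrl mice, at 1.34 times the Ctrl mean, and most of the larger difference seen in the gene sum lay in the short noncoding transcript. The gene sum was 39.8, 28.6, 133 and 15.0 FPKM in LH replicates 1 to 4. It was 17.0, 11.8, 25.7 and 11.5 in Ctrl, 16.9, 25.6, 27.8 and 28.2 in NLH, and 18.3, 30.8, 24.3 and 22.7 in HC. LH replicate 3 was far above all other mice and LH replicate 4 lay within the Ctrl range, so that LH overlapped every other group. LH was 1.31 higher than Ctrl on the log2 scale (SE 0.46, 95% interval 0.33 to 2.29, limma adjusted p = 0.289), and 0.72 higher without LH replicate 3. Of 18287 gene names, 0 (0.00%) passed an adjusted p of 0.05 in LH vs. Ctrl and 11.5% had an unadjusted p under 0.05. Among the 4 genes, Cacnb4 (unadjusted p = 0.0117) and Cacnb2 (0.0207) were below 0.05 before adjustment, and 0 were by the equal-variance test on FPKM (8.03% of gene names).

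Cacnb4-205 supplied 57.0% of all Cacnb4 FPKM and nearly all of its spread between mice. It stood at 22.2, 15.5 and 115 FPKM in LH replicates 1 to 3 and was listed at 0 in replicate 4. In Ctrl it was 4.37, 0.188 and 13.4 in replicates 1 to 3 and listed at practically 0 in replicate 4. NLH mice had 1.78, 14.5, 17.3 and 16.8, and HC mice 6.58, 20.8, 12.4 and 11.3. LH, Ctrl and NLH thus each contained mice far apart in this transcript, and LH vs. Ctrl was 2.79 on the log2 scale with an interval from -1.14 to 6.73 (limma adjusted p = 0.610). Because FPKM divides by length, the 208 bases weigh heavily in the sum. At the annotated length and the estimated depth, the 115 FPKM of LH replicate 3 came to about 591 fragments, whereas the 10.8 FPKM of Cacnb4-202 in the same library came to about 2105. Weighted by annotated length, Cacnb4-205 made up 0 to 13.9% of the Cacnb4 signal. The depth estimate took an assumed fragment length of 200 bases off each transcript length, whereas these values use all 208 bases. The fragments and the weight of Cacnb4-205 are therefore upper values, and values with the shortened length were not computed. Transcripts this short varied widely in general, since the 24 with 200 to 300 bases and a mean of 1 FPKM or more had a median SD of 2.56 between mice of a group on the log2 scale, against 0.26 for transcripts over 3000 bases. Cacnb4-205 had an SD of 2.88.

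The coding transcripts of Cacnb4 gave a much tighter picture. Their sum was 17.7, 13.1, 18.6 and 15.0 FPKM in LH, 12.6, 11.6, 12.4 and 11.5 in Ctrl, 15.1, 11.1, 10.4 and 11.4 in NLH, and 11.7, 9.95, 11.9 and 11.3 in HC. Every LH mouse was above every Ctrl and every HC mouse, and 2 of 4 were above every NLH mouse, of which replicate 1 reached into the LH range. LH lay above Ctrl without overlap for 4.05% of gene sums over all named transcripts, and the share for LH above HC was not computed. The means were 16.1 ± 2.51 in LH, 12.0 ± 0.52 in Ctrl, 12.0 ± 2.10 in NLH and 11.2 ± 0.86 in HC (SD, n = 4 each). LH exceeded Ctrl by 0.41 on the log2 scale (SE 0.13, 95% interval 0.14 to 0.68, limma adjusted p = 0.220) and NLH by 0.42 (SE 0.13, 0.15 to 0.69, adjusted p = 0.543). The exact two-sided permutation test on FPKM gave p = 0.0286 for LH vs. Ctrl, the smallest that 4 against 4 mice allow, and p = 0.0857 for LH vs. NLH. In the coding sum, NLH vs. Ctrl was -0.02 (interval -0.29 to 0.25) and Ctrl vs. HC was 0.10 (-0.17 to 0.37). The length-weighted sum differed by 0.47 for LH vs. Ctrl (adjusted p = 0.174) and 0.45 for LH vs. NLH (adjusted p = 0.405). None of these passed the adjusted threshold. LH vs. Ctrl and LH vs. NLH use the same LH mice, so they are not independent of each other.

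**Figure D3:**
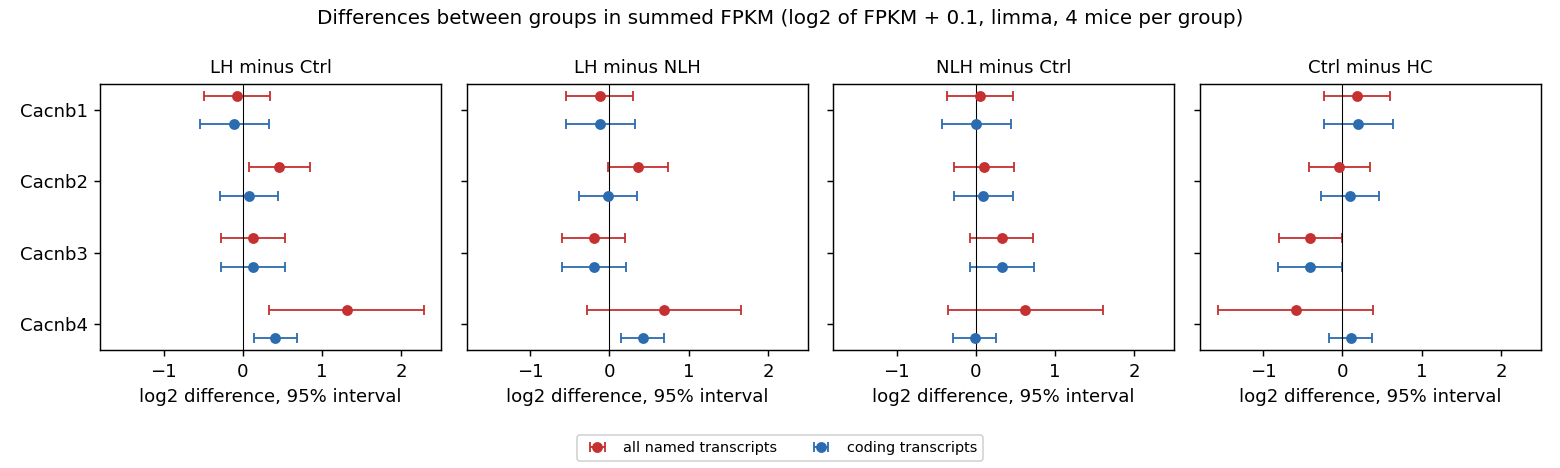
Log2 differences between groups in summed FPKM for each gene with 95% intervals from limma, over all named transcripts (red) and over coding transcripts (blue), 4 mice per group. The Cacnb4 difference of LH minus Ctrl is 1.31 over all named transcripts and 0.41 over the coding ones, with a narrower interval.

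Among single transcripts, Cacnb4-202 was higher in LH than in each other group without overlap. Its level was 12.4, 8.91, 10.8 and 13.0 FPKM in LH, 7.30, 4.97, 7.83 and 5.94 in Ctrl, 7.72, 5.85, 5.26 and 6.65 in NLH, and 8.01, 5.41, 8.57 and 7.79 in HC. The lowest LH mouse, at 8.91, was above the highest of the other 12, at 8.57. The difference was 0.79 for LH vs. Ctrl (SE 0.18, 95% interval 0.40 to 1.18, unadjusted p = 0.0006, limma adjusted p = 0.147) and 0.81 for LH vs. NLH (SE 0.18, 0.42 to 1.21, adjusted p = 0.194), which missed the threshold in both. Of all transcripts, 2.34% were higher in LH than in Ctrl without overlap, and 0.933% were higher than in NLH. In either direction, 5.85 and 3.18% did not overlap, and 8.76 and 2.54% of those with a mean of 1 FPKM or more. The share for LH vs. HC was not computed. The exact permutation p was 0.0286 for LH vs. Ctrl and for LH vs. NLH, the smallest possible, and 7 of the 84 exact tests run on 21 gene sums and transcripts reached it. Leaving out LH replicates 3 and 4 together gave 0.70 and 0.73.

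LH replicate 1 had the highest summed level of a list of thalamic markers, at 29.7 FPKM against 9.89 to 14.1 in the other LH mice, 11.3 to 14.1 in Ctrl, 11.8 to 13.6 in NLH and 11.5 to 14.9 in HC. All 5 markers of that list were detected in every mouse. Without that mouse, Cacnb4-202 was 0.74 higher in LH than in Ctrl and 0.77 higher than in NLH. A list of 5 striatal markers, of which Drd2 and Adora2a fell under 0.1 FPKM in at least 1 mouse, summed to 5.84, 5.94, 5.79 and 3.34 FPKM in LH against 3.61 to 3.86 in Ctrl, 3.56 to 5.72 in NLH and 3.62 to 3.96 in HC. LH replicate 4, with the lowest of these sums, had the highest Cacnb4-202 of all mice. The part of other brain regions in the difference was not tested beyond leaving out LH replicates.

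The remaining coding isoforms of Cacnb4 did not follow Cacnb4-202. Cacnb4-203, the isoform with the additional exon, was 4.53, 2.98, 5.45 and 1.29 FPKM in LH, 3.84, 5.61, 3.01 and 4.85 in Ctrl and 5.85, 3.85, 4.44 and 3.76 in NLH. HC mice were at 2.47, 2.97, 2.08 and 2.57, all below the lowest Ctrl mouse at 3.01. Ctrl exceeded HC by 0.73 (SE 0.34, unadjusted p = 0.0486, limma adjusted p = 1.00), where 2.53% of transcripts were higher without overlap. Cacnb4-201, which begins at the upstream exon, averaged 1.27 ± 0.76 in LH, 1.19 ± 0.36 in Ctrl, 1.02 ± 0.28 in NLH and 1.24 ± 0.25 in HC.

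As shares of the Cacnb4 FPKM, both isoforms were lower in LH than in Ctrl without overlap, where 3.83% of all transcripts had a lower ratio to the rest of their gene without overlap. Cacnb4-203 held 8.6% ± 3.2 in LH, 31.0% ± 16.7 in Ctrl, 19.8% ± 10.0 in NLH and 10.8% ± 2.2 in HC (SD, n = 4 each). Its log2 ratio to the rest of the gene differed by -2.15 for LH vs. Ctrl (SE 0.59, limma adjusted p = 0.229) and by -1.36 for LH vs. NLH (SE 0.59, adjusted p = 0.505), the latter also without overlap (2.13% of all transcripts). Cacnb4-201 held 3.2% ± 1.5 in LH and 7.4% ± 1.5 in Ctrl, a difference of -1.39 in the ratio (SE 0.41, limma adjusted p = 0.262). The rest of the gene includes the 208-base Cacnb4-205. Of the coding FPKM alone, Cacnb4-203 held 8.6 to 29.3% in LH, 24.3 to 48.2% in Ctrl and 33.1 to 42.5% in NLH. LH thus overlapped Ctrl and lay below NLH without overlap. Cacnb4-201 held 4.46 to 12.7% in LH and 6.42 to 12.3% in Ctrl, which overlapped. How many of all transcripts separate in shares of coding FPKM was not computed.

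As a percentage of the coding FPKM of Cacnb4, Cacnb4-202 held 70.6 ± 11.9% in LH, 53.9 ± 8.9% in Ctrl, 53.1 ± 3.7% in NLH and 65.9 ± 7.9% in HC, so LH and HC lay close together and Ctrl and NLH close together. Cacnb4-202 and Cacnb4-203 differ only by the 160-base exon and 7 bases at the start, so their division rests on few reads. Summed, they were 16.9, 11.9, 16.3 and 14.3 FPKM in LH against 11.1, 10.6, 10.8 and 10.8 in Ctrl, 1.37 times the Ctrl mean (exact permutation p = 0.0286), and did not depend on that division. Against NLH, at 13.6, 9.70, 9.69 and 10.4, the ratio was also 1.37 (exact permutation p = 0.0571).

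**Figure D4:**
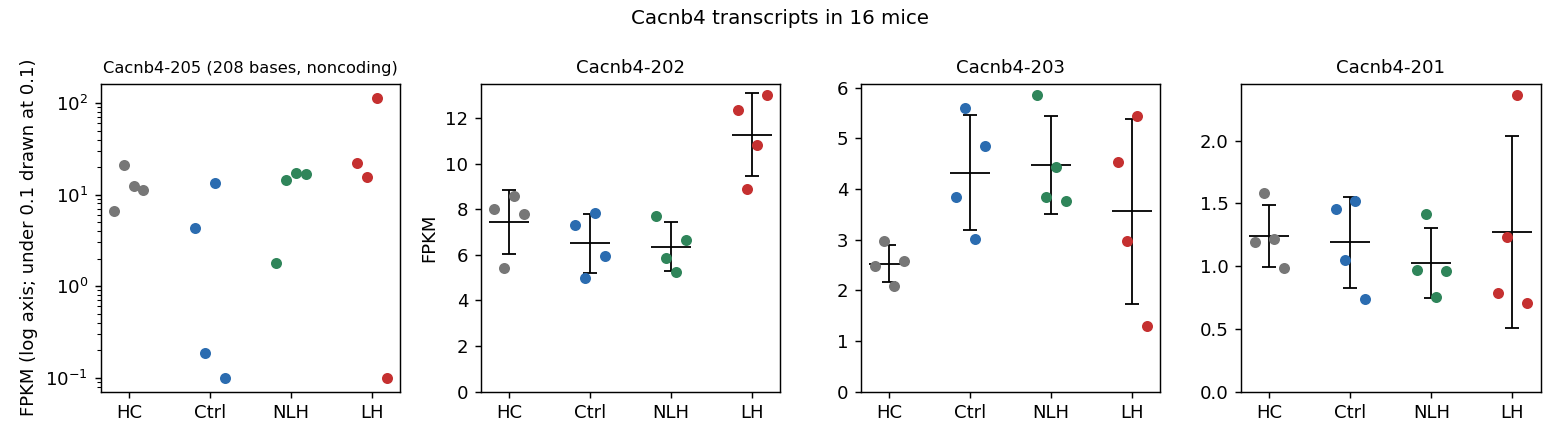
FPKM of 4 Cacnb4 transcripts in each of 16 mice (points) with group mean (line) and SD (bars; neither is drawn for Cacnb4-205, whose axis is logarithmic with values under 0.1 drawn at 0.1), n = 4 mice per group. All 4 LH mice are above all other mice for Cacnb4-202, and Cacnb4-205 ranges from 0 to 115.

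For Cacnb2, on the plus strand of chromosome 2 from 14603088 to 14987908, the higher gene sum in LH came from transcripts annotated as retained introns, while its coding transcripts differed little. The gene sum was 11.1, 13.9, 11.5 and 16.9 FPKM in LH and 8.41, 12.2, 8.80 and 9.14 in Ctrl, so that 1 Ctrl mouse lay within the LH range. LH vs. Ctrl was 0.46 (SE 0.18, 95% interval 0.08 to 0.84, limma adjusted p = 0.332) and LH vs. NLH was 0.36 (SE 0.18, adjusted p = 0.680). With 1 mouse left out, LH vs. NLH was as low as 0.22. The coding sum was 4.74, 6.00, 4.15 and 4.67 in LH, 4.03, 4.46, 5.73 and 4.34 in Ctrl, 3.88, 6.14, 6.04 and 4.06 in NLH, and 4.94, 3.74, 4.11 and 4.56 in HC. These overlapped throughout, with LH vs. Ctrl at 0.07 (interval -0.29 to 0.44) and LH vs. NLH at -0.02 (-0.39 to 0.34). The main coding transcript, Cacnb2-203 (ENSMUST00000114723.8, 655 codons), held 83.6% of the coding FPKM over the 16 mice. With the unnamed assembled transcripts of the locus added, the LH vs. Ctrl difference of the sum was 0.19 (interval -0.05 to 0.43).

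The noncoding Cacnb2 transcripts with a mean of 1 FPKM or more were all of the retained intron class and went in different directions. Cacnb2-208 (ENSMUST00000156027.7, 669 bases) was 1.95, 3.77, 4.77 and 8.27 FPKM in LH. Each other group overlapped this range, with highest values of 3.58 in Ctrl, 4.63 in NLH and 2.76 in HC. The means of Cacnb2-208 were 4.69 in LH, 1.32 in Ctrl, 1.64 in NLH and 1.01 in HC. Its highest value fell in LH replicate 4, the library with the most zeros and the lowest depth; the part of depth in this was not tested. LH vs. Ctrl was 2.48 (SE 1.24, limma adjusted p = 0.498). Cacnb2-206 (ENSMUST00000144423.1, 935 bases), near the end of the gene, was 1.36, 1.03, 1.47 and 2.98 in LH and 0.744, 0.956, 0.531 and 0.491 in NLH, without overlap, a difference of 1.15 (SE 0.30, unadjusted p = 0.0019, limma adjusted p = 0.290) that was 0.86 without LH replicate 4. Against Ctrl, at 0.757, 1.25, 0.698 and 0.955, the difference was 0.76 (limma adjusted p = 0.400) and 0.47 without LH replicate 4. Cacnb2-205 (ENSMUST00000137746.7, 2144 bases) was lowest in LH, at 1.26 ± 0.32 against 1.61 ± 0.28 in Ctrl, 1.72 ± 0.49 in NLH and 2.01 ± 0.32 in HC. Its share of the Cacnb2 FPKM was 9.7% in LH and 16.9 to 20.6% in the other groups, and the log2 ratio of Cacnb2-205 to the rest of the gene differed from Ctrl by -0.92 (limma adjusted p = 0.410).

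**Figure D5:**
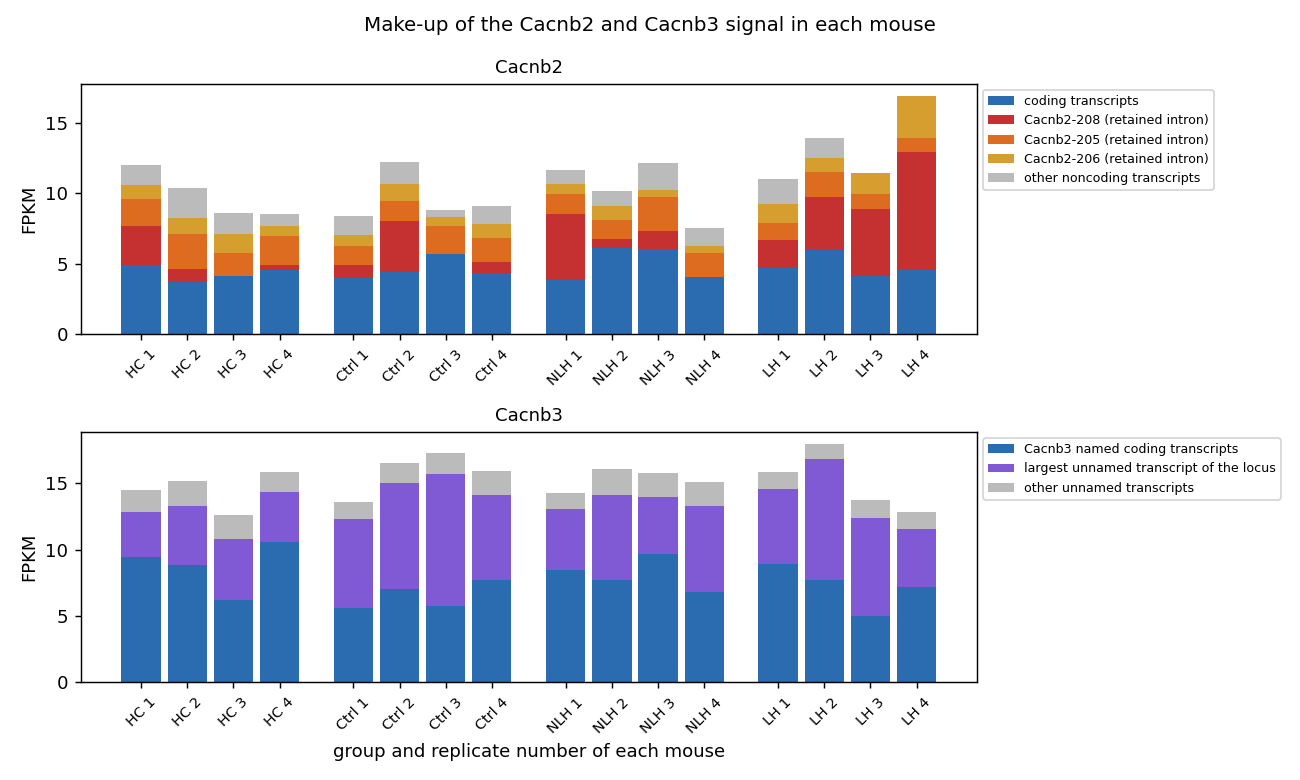
FPKM in each of 16 mice as stacked bars, for Cacnb2 by class of transcript (upper panel) and for the Cacnb3 locus by named and unnamed transcripts (lower panel). The coding part of Cacnb2 stays between 3.74 and 6.14 in all mice, and the largest unnamed transcript of the Cacnb3 locus stands at 6.43 to 9.97 in Ctrl against 3.42 to 4.62 in HC.

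Cacnb3, on the plus strand of chromosome 15 from 98630840 to 98644529, showed its largest difference between Ctrl and HC, the comparison that holds the handling, the shuttle box and the escape trials. The sum was 5.61, 7.05, 5.73 and 7.70 FPKM in Ctrl and 9.44, 8.86, 6.18 and 10.6 in HC, with 1 HC mouse inside the Ctrl range. The difference was -0.41 (SE 0.19, 95% interval -0.81 to -0.01, unadjusted p = 0.0470, limma adjusted p = 1.00), where 2.70% of gene names had an unadjusted p under 0.05. The single transcript Cacnb3-201 carried 94.0% of the FPKM and was 6.02 ± 0.47 in Ctrl against 8.37 ± 1.59 in HC (-0.45, SE 0.17, adjusted p = 1.00). NLH was at 8.18 ± 1.21 and LH at 7.21 ± 1.63, with LH vs. Ctrl at 0.13 (interval -0.27 to 0.53). The assembled locus also holds transcripts without a gene name, and when these were added the sum was 13.6, 16.5, 17.3 and 15.9 in Ctrl and 14.5, 15.2, 12.6 and 15.9 in HC, a difference of 0.12 with the opposite sign (interval -0.12 to 0.36).

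Cacnb1, on the minus strand of chromosome 11 from 98001508 to 98023034, differed little between the groups. Its sum was 12.3, 13.8, 9.30 and 6.50 FPKM in LH, 9.34, 10.9, 11.4 and 10.9 in Ctrl, 10.5 ± 3.23 against 10.6 ± 0.88. LH held both the highest and the lowest of the 16 mice, and its lower 2 values were those of the 2 libraries with the most zeros. LH vs. Ctrl was -0.08 (95% interval -0.50 to 0.34, limma adjusted p = 0.923), which changed sign to 0.29 without those 2 libraries, and LH vs. NLH was -0.13 (-0.55 to 0.29). Cacnb1-201 (597 codons) and Cacnb1-205 (479 codons) made up 52.2 and 38.8% of the FPKM. Cacnb1-201 held 39.0 to 49.0% of the Cacnb1 FPKM in LH, below the 51.4 to 54.5% of Ctrl and the 50.3 to 57.9% of NLH without overlap, where 3.83 and 2.13% of all transcripts had a lower ratio to the rest of their gene without overlap. Of the coding FPKM alone, its 41.5 to 53.0% in LH overlapped the 52.5 to 55.6% of Ctrl and lay just below the 53.2 to 60.8% of NLH. The share of all transcripts that separate in this way was not computed. In the ratio to the rest of the gene, on the log2 scale, Cacnb1-201 differed by -0.42 from Ctrl (limma adjusted p = 0.596) and by -0.46 from NLH (adjusted p = 0.619).

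Across the 26 member transcripts, 0 passed the limma adjusted threshold in any of the 4 comparisons, against 0.0462% of all transcripts in LH vs. Ctrl, 0.0412% in LH vs. NLH, 0.0125% in NLH vs. Ctrl and 0.00374% in Ctrl vs. HC. Before adjustment, 3 were below 0.05 in LH vs. Ctrl, all higher in LH (10.7% of all transcripts in either direction, 4.16% higher), namely Cacnb4-202, Cacnb2-206 and Cacnb2-214, the last at 0.622 FPKM or less in every mouse. In LH vs. NLH there were 2, both higher (8.72%, and 2.98% higher), Cacnb4-202 and Cacnb2-206. NLH vs. Ctrl gave 1, higher in NLH (5.12%, and 3.01% higher), Cacnb1-206 at 0.59 ± 0.25 against 0.27 ± 0.23, and Ctrl vs. HC gave 5 (3.45%), of which Cacnb2-202, Cacnb2-211 and Cacnb2-215 stayed under 1 FPKM in every mouse. By the equal-variance test on FPKM without adjustment, the counts were 1, 1, 0 and 3, against 7.82, 4.64, 7.32 and 6.78% of all transcripts. The median log2 difference of the 26 was 0.00 in LH vs. Ctrl (-0.06 over all transcripts), and in LH vs. NLH it was -0.21 (-0.08 over all transcripts). At gene level 0 of 4 members passed in any comparison, against 0.0109% of gene names in LH vs. NLH, 0.00547% in NLH vs. Ctrl and 0.00% in the other two, and 2, 0, 0 and 1 were below 0.05 before adjustment in LH vs. Ctrl, LH vs. NLH, NLH vs. Ctrl and Ctrl vs. HC, where 11.5, 7.54, 5.59 and 2.70% of all gene names were. In the ratio to the rest of the gene, 0 of the 26 transcripts passed in the 4 comparisons in that order, against 0.0351, 0.0461, 0.0111 and 0.00369% of all transcripts tested so, and 5, 4, 0 and 3 were below 0.05 before adjustment, against 10.5, 9.36, 4.89 and 3.33%. All 5 in LH vs. Ctrl were lower in LH (6.73% of all were). At gene level, the equal-variance test gave 0 in LH vs. NLH (3.50% of gene names), 0 in NLH vs. Ctrl (9.58%) and 0 in Ctrl vs. HC (8.50%).

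Other genes of the channels were taken from a list of 32, of which 22 encode alpha1, alpha2delta or gamma subunits and 10 were listed as partners that bind or act on beta subunits. Of these 32 genes, 30 were in the table, and 0 passed the adjusted threshold in any comparison. In LH vs. Ctrl, 1 was higher and 4 were lower before adjustment, where 7.03% of all gene names were higher and 4.49% lower, with a median of -0.06 over the 30 against 0.00 over all gene names. Cacna2d1, an alpha2delta subunit, was 23.3 ± 3.82 FPKM in LH against 18.8 ± 1.51 in Ctrl (0.29, SE 0.12, limma adjusted p = 0.378). Cacna1h, the pore of a low voltage-activated T-type channel, a class outside the high voltage-activated channels that beta subunits serve, was 3.65 ± 1.25 against 7.08 ± 1.51 (-0.98, SE 0.24, limma adjusted p = 0.139). The Ctrl mice were the highest group for this gene, since NLH was at 3.86 ± 0.79 and HC at 4.99 ± 1.33. NLH vs. Ctrl, which shares the Ctrl mice, gave -0.86 (limma adjusted p = 0.522) and Ctrl vs. HC gave 0.51 (SE 0.24, adjusted p = 1.00). Cacng8, which also serves as an auxiliary subunit of AMPA receptors, was at -0.71 (adjusted p = 0.309) and the adaptor Stac at -0.86 (adjusted p = 0.315). In LH vs. NLH the smallest p-values were those of Rem1, a small GTPase that binds beta subunits (-0.61, adjusted p = 0.627), Cacng8 (-0.54, adjusted p = 0.680) and Cacna1b, the N-type pore (1.93, SE 0.95, adjusted p = 0.680). Of these, Rem1 was at or below 0.112 FPKM in every NLH mouse. Cacna1b was 4.47, 0.816, 1.98 and practically 0 FPKM in LH against practically 0, 0.053, 0.576 and 0.303 in NLH, so values near the floor enter its difference.

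Correlations between the gene sums of the 4 beta subunits were weak. Over the 16 mice, Pearson's r ranged from -0.29 for Cacnb3 with Cacnb4, where Spearman's rho was -0.01, to 0.29 for Cacnb1 with Cacnb3, where rho was 0.34, and the highest rho was 0.36, for Cacnb1 with Cacnb4 (r = 0.12), as a description of libraries that share their depth and grouping. Among 10435 gene names with a mean of 1 FPKM or more, those most like each member were Opa3 (r = 0.96), Aldoc (0.94) and Pip5k1c (0.94) for Cacnb1, and Slc25a36 (0.85), Prpf18 (0.83) and Ryr3 (0.83) for Cacnb2. For Cacnb3 they were Mitd1 (0.86), Smim7 (0.82) and Tmem199 (0.80). For Cacnb4 they were Atl2 (0.83), Ndrg2 (0.83) and 8030462N17Rik (0.82), and r fell to 0.68, 0.72 and 0.51 without the 2 mice farthest from the median. The transcripts of the 4 genes had no stretch of 31 bases in common, so reads of one gene could not be exchanged with another at that length.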

How the data were processed

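The deposited table holds FPKM per assembled transcript and mouse, made by the authors; the submitters' processing notes name STAR 2.42a, StringTie 1.2.3 and Cufflinks (mm10), whereas the study's methods name HISAT2 as aligner, and the version of Cufflinks is not given in the sources used here. FPKM carry no counts, so counts could not be tested. Depth was estimated from the steps between low FPKM values, with an assumed fragment length of 200 bases. The depth with the highest share of whole steps was kept, at which 62.8 to 68.0% were whole within 0.1. Chance gives 20% at a fixed depth, and the chance level of the highest share was not computed. Transcripts were matched to GENCODE vM21 by identifier (24 of 26 by version). The 2 Cacnb3 identifiers matched another version, so their lengths are uncertain.

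FPKM were summed by gene name. Limma 3.58.1 in R 4.3.3 fitted log2(FPKM + 0.1) for all 16 mice with trend and robust variances, for 18287 gene sums, 80137 transcripts and 54197 transcript shares, the latter as the log2 ratio of a transcript to the rest of its gene, each plus 0.1. On simulated gene sums with 200 genes changed by 2 on the log2 scale, 94.0 to 98.5% were recovered, with 5 to 10 false calls; smaller changes were not simulated. Single values were compared by exact permutation (scipy). The limma p-values rest on the spread between 4 mice per group, pooled over the 4 groups. Each gene or transcript therefore has the same SE in every comparison. The median SD of log2 FPKM was 0.43 in LH against 0.18 to 0.25 in the other groups. The pooled SE can thus be too small for LH differences and too large for those without LH. The exact permutation test uses only the mice compared. The study's own test was an equal-variance test on FPKM without adjustment, given as an alternative.

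Named were the 4 gene sums, transcripts with a mean of 1 FPKM or an unadjusted p under 0.05, channel genes with the smallest p-values, the 3 gene names most correlated with each member, and marker lists for hippocampal neurons, thalamus, striatum and choroid plexus. Members, lists and rules were chosen with earlier results of these data known.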

Additional observations from a re-analysis of the deposited data

Results flagged for a closer look

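An unnamed assembled transcript of the Cacnb3 locus, outside the named rows on which the comparisons rest, was higher in Ctrl than in HC mice without overlap. It stood at 6.70, 7.98, 9.97 and 6.43 FPKM in Ctrl (mean 7.77) and at 3.42, 4.42, 4.62 and 3.77 in HC (mean 4.06), a log2 difference of 0.91 (SE 0.22, limma adjusted p = 1.00), while NLH had 4.58, 6.40, 4.27 and 6.47 and LH 5.62, 9.13, 7.35 and 4.36. It was 1 of 14 unnamed transcripts at the 4 loci. Whether it is transcribed with Cacnb3 was not tested. No group of 4 mice held a value past Dixon's limit in any of the 76 groups tested, over gene sums, coding sums and transcripts with a mean of 1 FPKM or more, where chance flags about 1 in 20.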

How the results depend on the processing

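The count of members past the threshold was 0 in each of 12 results (4 comparisons of gene sums, transcripts and shares), and stayed at 0 in 190 of 194 alternatives (other pseudocounts and filters, median-ratio size factors, only the 8 mice compared, each mouse left out). Without both LH libraries with the most zeros it was 1 gene sum in LH vs. Ctrl, Cacnb4 (1.11, adjusted p = 0.0474), a setting that moved the median of all gene names to 0.19. By the equal-variance test on FPKM without adjustment it was 1 transcript in LH vs. Ctrl, 1 in LH vs. NLH (both Cacnb4-202) and 3 in Ctrl vs. HC (Cacnb4-203, Cacnb2-211 and Cacnb3-201).

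The replicate numbers did not pair the mice: over 24 pairs with the same number, the correlation of deviations had a median of -0.00835 (-0.058 to 0.087), and 5 of 16 mice correlated best with their own number. With the number as a block, 0 members passed in all 12 results, and transcripts called in LH vs. Ctrl went from 37 to 5 over the whole table.

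Some differences that passed no threshold changed sign, and the cause was not tested. For Cacnb1 this was LH vs. Ctrl (0.29) and LH vs. NLH (0.24) without both LH libraries and NLH vs. Ctrl with size factors (-0.0016). With 1 mouse left out at a time, Cacnb1 ranged from -0.23 to 0.13 in LH vs. Ctrl, from -0.28 to 0.081 in LH vs. NLH and from -0.013 to 0.14 in NLH vs. Ctrl, and Cacnb2 from -0.16 to 0.061 in Ctrl vs. HC. Cacnb3 was at 0.030 in LH vs. NLH without both LH libraries. The other changes come from sums chosen after the data were seen. Coding sums gave -0.021 for Cacnb2 in LH vs. NLH, 0.090 for Cacnb2 in Ctrl vs. HC, -0.016 for Cacnb4 in NLH vs. Ctrl and 0.10 for Cacnb4 in Ctrl vs. HC, and sums without transcripts of 300 bases or fewer gave the same values for Cacnb4. Length-weighted sums in Ctrl vs. HC gave 0.0067 for Cacnb2 and 0.077 for Cacnb4. Sums with unnamed transcripts, added only at loci that carry 1 gene name, gave Cacnb3 -0.076 in LH vs. Ctrl, -0.044 in NLH vs. Ctrl and 0.12 in Ctrl vs. HC. How far depth limits transcripts under 1 FPKM was not tested.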

Other observations

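Markers of the choroid plexus, which lies against the hippocampus, summed to between 1.59 and 81.1 FPKM over the 16 mice, with both extremes in LH. In LH replicates 1 to 4 they summed to 54.8, 81.1, 22.9 and 1.59 FPKM, beside Cacnb4-202 at 12.4, 8.91, 10.8 and 13.0. The mouse with the highest sum had the lowest Cacnb4-202 of its group in LH, in Ctrl (46.7 beside 4.97) and in NLH (59.0 beside 5.26), whereas in HC it had the highest (34.9 beside 8.57) and the mouse with the lowest sum had the lowest (2.39 beside 5.41). Whether tissue composition has a part in the spread of Cacnb4-202 was not tested.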
